A study of Homo sapiens with 4 samples.

Results

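The translation initiation, elongation and termination factor genes were examined in RIP-seq of YTHDF1, a cytoplasmic reader protein of N6-methyladenosine (m6A) in mRNA. The genes were protein-coding genes whose symbol starts with EIF, EEF or PABPC and a digit, plus ETF1, GSPT1 and GSPT2, with EIF2AK2 left out. RefSeq holds 81 such genes, of which 41 had at least 1 listed window, among 6679 protein-coding genes and 7550 genes of any type with one. EEF1AKNMT, named METTL13 in RefSeq, was counted in both numbers by its symbol among the listed windows. SNU638, a gastric cancer cell line, was made to overexpress YTHDF1, kept without serum for 24 h and then given IFN-γ at 10 ng/ml for 24 h. All 4 libraries shared this treatment, 2 of them Input and 2 IP-YTHDF1, with 2 biological replicates each, and no untreated library or library without overexpression was analysed here.

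The deposited table lists 50 bp windows, and for every window it gives a single p-value, q-value and signal value. Its authors give no scale for the signal value, which is used here to order windows within the table and not as a ratio of IP-YTHDF1 to input. No column names a library, and the study describes its peaks as a union over the replicates, so a window may come from either replicate alone or from both. The spread between replicates and the sequencing depth are therefore unknown, and no difference described here was tested. A gene with no listed window may be unbound, weakly expressed or read with too little depth, and these cannot be told apart. Of 7 epithelial markers, 5 had a window (KRT8, KRT18, KRT19, EPCAM and CLDN7), and CDH1 and CLDN4 had none. Of 6 markers of immune, endothelial and stromal cells 0 had one. Over all protein-coding genes the share was 31.8%, and a window shows binding and not expression level.

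Translation of most mRNAs begins when eIF2, carrying GTP and the initiator tRNA, joins the small ribosomal subunit together with eIF1, eIF1A, eIF3 and eIF5. The eIF4F complex brings this assembly to the capped 5′ end, with eIF4E binding the cap, eIF4G acting as the scaffold and eIF4A as the helicase, while PABPC proteins bind the poly(A) tail. eIF2B returns eIF2 to its GTP form, and stress kinases that phosphorylate eIF2 block this step. eEF1A and its exchange factors deliver aminoacyl-tRNAs, eEF2 moves the ribosome along, and eRF1 (ETF1) with eRF3 (GSPT1) release the finished protein. Many mRNAs of this machinery start with a C followed by a run of pyrimidines, the 5′ terminal oligopyrimidine motif, through which mTOR signalling controls their translation.

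A start of this kind, a C at the RefSeq start followed by at least 4 pyrimidines, was found in 13 of the 64 translation factor genes that the RefSeq promoter table (GRCh38.p14) holds, or 20.3%. It was found in 988 of 15843 protein-coding genes (6.24%) and in 48 of 71 ribosomal protein genes (67.6%). The first 20 bases of the 9 such translation factor genes that had a listed window are shown because they are the best-known regulatory element of this gene class. Capitals mark the run of pyrimidines from the first base.
EEF1B2: CCTTTTTCCTCTCTTCagcg
EEF2: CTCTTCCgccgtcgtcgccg
EIF2D: CCTTTTCgcggccgggcccc
EIF2S3: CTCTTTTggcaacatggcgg
EIF3D: CTCTTTTCCTggtttctcaa
EIF3F: CTTCTTTCTCgacaagatgg
EIF3M: CTTTTCCggtcggcgtggtc
EIF4A2: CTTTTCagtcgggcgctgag
EIF4B: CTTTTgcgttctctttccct

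The other 4 genes with such a start had no listed window, and their first bases are given in the same way. The 20 bases of EIF2S3B, a copy of EIF2S3, are the same as those of EIF2S3 itself.
EEF1A1: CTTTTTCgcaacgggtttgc
EIF2A: CTCTTTCCgggacaacatgg
EIF2S3B: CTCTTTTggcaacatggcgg
EIF3K: CTCTTCCTgttcccgtcctt

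By this definition the start was found in 9 of 32 translation factor genes with a window (28.1%) and in 4 of 32 without one (12.5%). A looser definition, with the C up to 3 bases either side of the start and at least 5 pyrimidines after it, gave 9 of 32 with a window and 7 of 32 without (21.9%), so the distance between both sets depended on the definition. Over all protein-coding genes the strict start was found in 7.69% of those with a window and in 5.51% of those without. The looser start was found in 14.2% and 11.1% of them. It was found in 25% of the 64 translation factor genes, against 12.1% of all protein-coding genes. Both definitions were set after values had been seen, and the match describes the letters of the annotated start alone.

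Of the 81 translation factor genes, 41 (50.6%, 95% Wilson interval 40.0 to 61.2, which covers counting error only) had a listed window, and 31.8% of all 20056 RefSeq protein-coding genes did. Together they held 129 windows, which joined into 96 regions when touching windows were merged. When q-values up to 0.001 were required, 26 of the 81 genes kept a window (32.1%, against 21.2% of all protein-coding genes). With a signal value of at least 2, 21 did (25.9%, against 22%). With a Bonferroni limit over the windows counted in all listed genes, 18 did (22.2%, against 12.6%), and a second way of counting those windows left 16 (19.8%, against 12.2%).

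The medians of the translation factor genes were below those of all protein-coding genes, a difference that was not tested. Taking the strongest window of each gene, the median signal value was 2.07 (interval of the median 1.85 to 2.27). Over all protein-coding genes with a window it was 2.23, which lies inside that interval. Single windows had a median signal value of 1.71, against 1.83, and ranged from 0.79 to 3.14, against 0.70 to 6.76. The median number of windows per gene was 2, against 3. The share of genes with 1 window was 26.8%, against 29.0%, and 4.88% reached 9 windows, the most that any gene in the table has, against 12.8%. In EEF1A2, EIF1AD, EIF4ENIF1 and EIF4G1, 8 windows had the same signal value and p-value as another window of the gene (6.20%, against 5.20%).

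**Figure D1:**
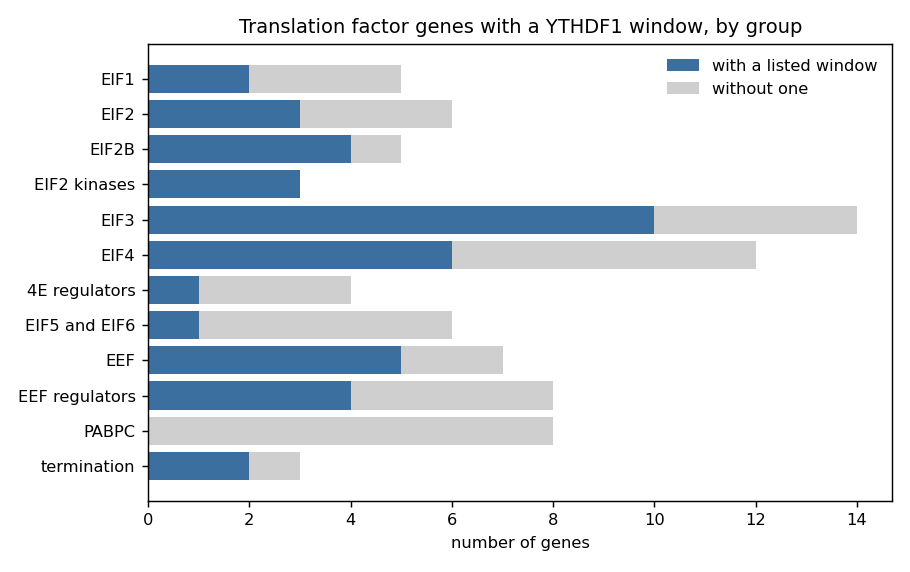
Number of translation factor genes with (blue) and without (grey) a listed YTHDF1 window, one bar per group of factors. All 3 EIF2 kinases and 10 of 14 EIF3 genes had a window, and 0 of 8 PABPC genes did. Over all RefSeq protein-coding genes the share was 31.8%.

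eIF2, its exchange factor eIF2B and its kinases together had windows in 10 of 14 genes. The share was 50.6% over all translation factor genes and 31.8% over all protein-coding genes. The kinase genes were long, with a median of 71405 bp against 18312 bp over all translation factor genes. Of the eIF2 group, EIF2S2 (the beta subunit), EIF2S3 (the gamma subunit, which binds GTP and the initiator tRNA) and EIF2D (a factor that can deliver tRNA without GTP) had windows, while EIF2S1 (the alpha subunit, the target of the kinases), EIF2A and EIF2S3B had none. EIF2S2 had 2 touching windows at chr20:34112110-34112209 on the minus strand, with signal values of 2.44 (p = 1.12e-11 in the authors' table) and 1.63. Both lay within 108.5 bp of the annotated start of the gene, counted from the centre of the window. EIF2S3 had 1 window with a signal value of 1.97, and EIF2D had 2 with values of 2.26 and 1.75.

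Of the 5 eIF2B subunits, EIF2B1, EIF2B2, EIF2B3 and EIF2B5 had windows and EIF2B4 had none. EIF2B1, the alpha subunit, held the strongest window of any translation factor gene, at chr12:123633607-123633656 (minus strand), with a signal value of 3.14 (p = 1.89e-14 in the authors' table). This value exceeded the strongest value of 94.0% of all protein-coding genes with a window. The touching window chr12:123633557-123633606 had a value of 2.54, and the other 2 windows of the gene, farther into it, had 1.92 and 1.37. EIF2B5, the catalytic epsilon subunit, had 5 windows of 1.42 to 2.45, the strongest at chr3:184137739-184137788. EIF2B3 and EIF2B2 had 1 window each, with values of 2.17 and 1.79.

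All 3 eIF2 kinases that the selection keeps had windows, with the highest median of the strongest value (2.58) among groups of 3 or more listed genes. The termination group, with 2 listed genes, had a higher median of 2.695. EIF2AK1, the kinase that responds to lack of haem, had its strongest window at chr7:6059098-6059147 (minus strand), with a value of 2.73 and p = 6.73e-10 as the authors give it, centred 52.5 bp from the gene start. EIF2AK3 (PERK, the kinase of endoplasmic reticulum stress) had 4 touching windows of 1.89, 2.58, 2.34 and 2.21, all about 1 kb inside the gene interval. Counted from the nearest of all RefSeq starts of EIF2AK3, they were centred at 297.5 to 447.5 bp. EIF2AK4 (GCN2, which senses uncharged tRNA) had 5 windows. Its 3 touching windows at chr15:39934166-39934315, within 175.5 bp of the gene start, had values of 1.99, 1.22 and 2.41, and the other 2 had 1.44 and 1.37. The strongest windows of EIF2AK1, EIF2AK4, EIF2B1 and EIF2S2 were thus centred in the first 200 bp of the gene. Those of EIF2AK3, EIF2B2, EIF2B3, EIF2B5, EIF2D and EIF2S3 were not. A window of any strength within 200 bp of the gene start was found in 31.7% of listed translation factor genes. The share was 32.5% of all protein-coding genes with a window.

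eIF3, the largest initiation factor, had windows in 10 of its 14 genes, with 25 windows in all. The share over all protein-coding genes was 31.8%. The values were mostly low, with a median of the strongest value of 1.69 and a median over windows of 1.33. EIF3E, EIF3H, EIF3J and EIF3K had none. EIF3M stood highest, with 1 window at chr11:32587049-32587098 and a value of 2.54 (p = 1.03e-09 in the authors' table). EIF3F had windows of 2.28 and 1.84, both within 239.5 bp of the gene start. EIF3B had the most windows, 8, with values between 0.79 and 1.54, and 7 of them lay between 875.5 and 1275.5 bp from the gene start. Counted from the nearest of all RefSeq starts of EIF3B, these 7 lay at 134.5 to 534.5 bp. The strongest value was 1.79 in EIF3A, 1.62 in EIF3I, 1.33 in EIF3D, 1.28 in EIF3G and 1.11 in EIF3L. EIF3C (values of 1.30 and 1.76) and its near-identical copy EIF3CL (1.85) share most of their sequence, so reads may have been divided between them.

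The genes of eIF4F and its helpers were divided. Of the 12 EIF4 genes, EIF4A2, EIF4A3, EIF4B, EIF4G1, EIF4G2 and EIF4H had windows, and EIF4A1, EIF4E, EIF4E1B, EIF4E2, EIF4E3 and EIF4G3 had none. No gene of the cap-binding eIF4E family had a window. The share over all protein-coding genes was 31.8%, and with so few genes of unknown expression the difference was not tested. EIF4G1, the main scaffold, had 8 separate windows spread over the gene, with values of 1.51, 1.80, 1.80, 1.80, 1.00, 0.95, 2.49 and 2.09 from the 5′ to the 3′ end. The strongest, chr3:184325896-184325945, had p = 1.36e-07 in the authors' table. EIF4G2 (DAP5, a relative that lacks the eIF4E site) had 2 windows of 2.53 and 2.19.

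The eIF4A helicases had 4 windows in EIF4A2 (1.57, 1.26, 2.27 and 2.03), 2 in EIF4A3 of the exon junction complex (1.31 and 1.32) and 0 in EIF4A1. EIF4H, which stimulates the helicase, had 5 windows of 1.45 to 1.98, and EIF4B, with the same role, had 2 of 1.85 and 1.18. Of the eIF4E regulators, EIF4ENIF1 (the transporter that moves eIF4E into the nucleus) had 2 windows of 1.76. The 3 eIF4E-binding proteins EIF4EBP1, EIF4EBP2 and EIF4EBP3 had none.

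Of the remaining initiation factor groups, 2 of 5 EIF1 genes and 1 of 6 EIF5 and EIF6 genes were listed. The share over all protein-coding genes was 31.8%, and the difference was not tested. EIF1, which guards start codon choice, had 1 window at chr17:41688886-41688935 with a value of 1.87. EIF1AD, named for its eIF1A-like domain, had 4 windows of 1.67 to 2.20. EIF1AX and EIF1B had none, as had 1 further copy of EIF1A. EIF5, the GTPase activator of eIF2, had 1 window of 1.98. EIF5A, EIF5A2, EIF5AL1, EIF5B and EIF6 had none.

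**Figure D2:**
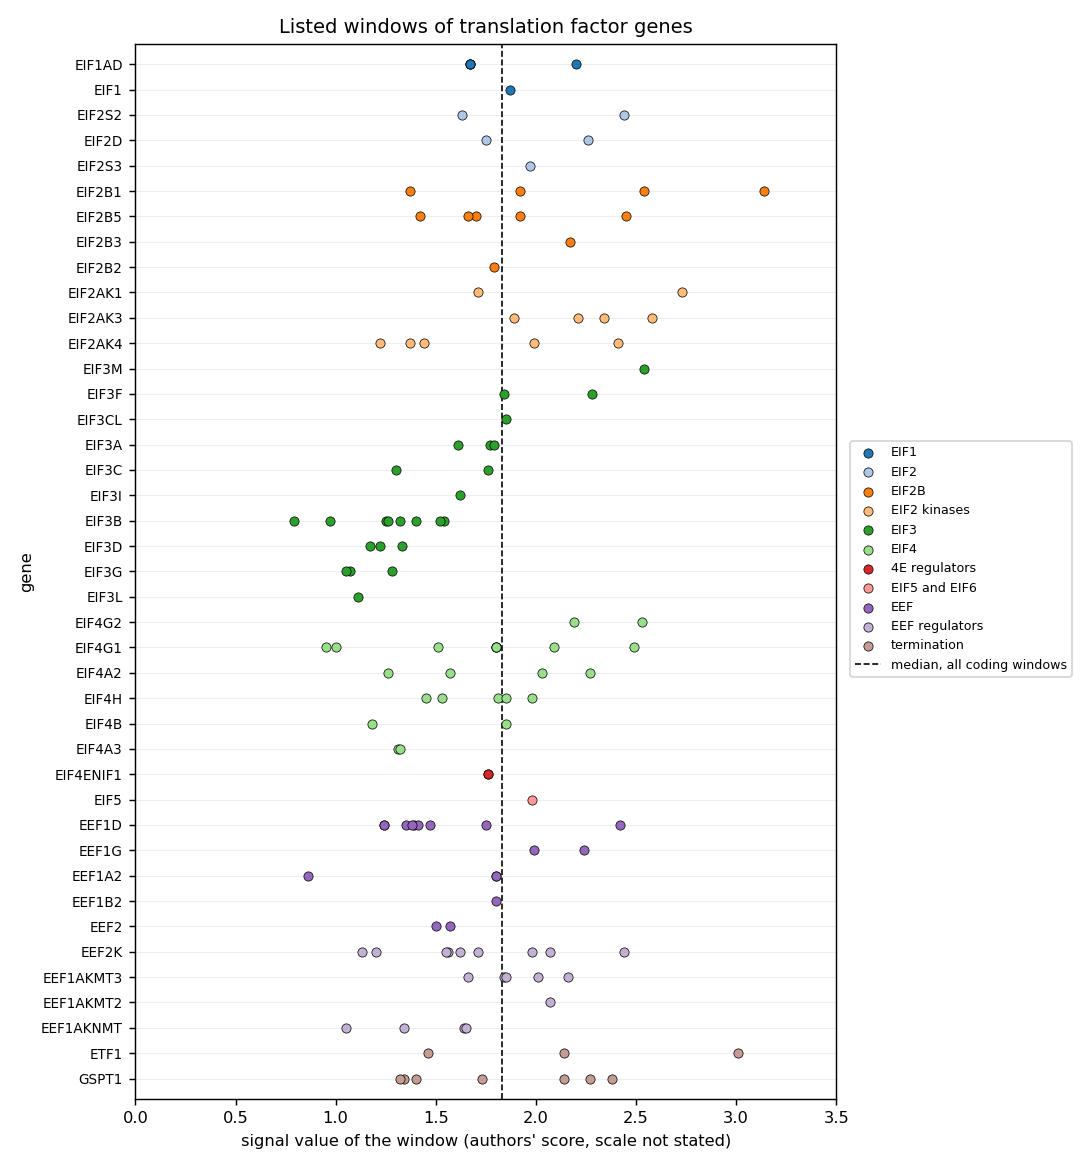
Signal value of each of the 129 listed windows (x axis, the authors' score with no stated scale) by gene (y axis), coloured by group, with the median of all windows in protein-coding genes as a dashed line. EIF2B1 and ETF1 hold the 2 windows above 3, and no EIF3 gene other than EIF3M and EIF3F exceeds 1.85.

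Among the elongation factors, 5 of 7 genes had windows, against 31.8% of all protein-coding genes, a difference that was not tested. EEF1D, the exchange subunit delta of eEF1, reached 9 windows with values of 1.24 to 2.42, and 7 of them lay together near the middle of the gene. The places of its p-values among the 90 windows counted as tested began at 3, ended at 16 and left out 7. By this count its listed windows are not all that passed. Windows with smaller p-values than any listed would be among those left out, so its strongest listed window may not be its strongest. The count rests on q-values adjusted within the gene, and the simulations did not check its first place. EEF1G, the gamma subunit, had 2 touching windows of 2.24 and 1.99 with a listed p of 0, which is below the numeric limit of the table. EEF2, the translocase, had 2 windows of 1.57 and 1.5, and EEF1B2 had 1 of 1.80.

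Both EEF1G windows overlapped windows listed under AP002990.1, another gene on the same strand, and the table does not tell which gene the reads came from. The other elongation paralogs differed in listing. EEF1A2, the form of muscle and nerve, had 3 windows (1.80, 0.86 and 1.80), while EEF1A1, the form of most tissues, had none. EEF1E1 had none either.

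The regulators of elongation were led by EEF2K, the kinase that inhibits eEF2, with 9 windows among the 68 counted as tested. Its strongest window, chr16:22283979-22284028, had a value of 2.44 and p = 4.67e-12 as the authors give it and lay at 94.3% of the gene, toward its 3′ end. A second cluster of 4 windows, with values of 1.55, 1.98, 2.07 and 1.62, lay at 61.3 to 63.4% of the gene. Of the methyltransferases that modify eEF1A, EEF1AKMT3 had 5 windows of 1.66 to 2.16, EEF1AKNMT (METTL13) had 4 of 1.05 to 1.65 and EEF1AKMT2 had 1 of 2.07. All 5 windows of EEF1AKMT3 overlapped windows of AC025165.3 on the same strand. EEF1AKMT1, EEF1AKMT4, the readthrough gene EEF1AKMT4-ECE2 and EEF2KMT had none.

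Of the 3 termination factor genes, 2 were listed, against 31.8% of all protein-coding genes. ETF1, which reads the stop codon, had the second strongest window of all translation factor genes, at chr5:138543146-138543195 (minus strand), with a signal value of 3.01 (p = 1.78e-15 in the authors' table), centred 65.5 bp from the gene start. It had 2 more windows, with values of 2.14 and 1.46. GSPT1, its GTPase partner, had 7 windows of 1.32 to 2.38, and 5 of them lay between 750.5 and 1200.5 bp from the gene start. Counted from the nearest of all RefSeq starts of GSPT1, these 5 lay at 52.5 to 502.5 bp. GSPT2, an intronless copy of GSPT1, had none. None of the 8 PABPC genes had a window (PABPC1, PABPC1L, PABPC1L2A, PABPC1L2B, PABPC3, PABPC4, PABPC4L and PABPC5). The share over all protein-coding genes was 31.8%, and with 8 genes of unknown expression the difference was not tested.

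**Figure D3:**
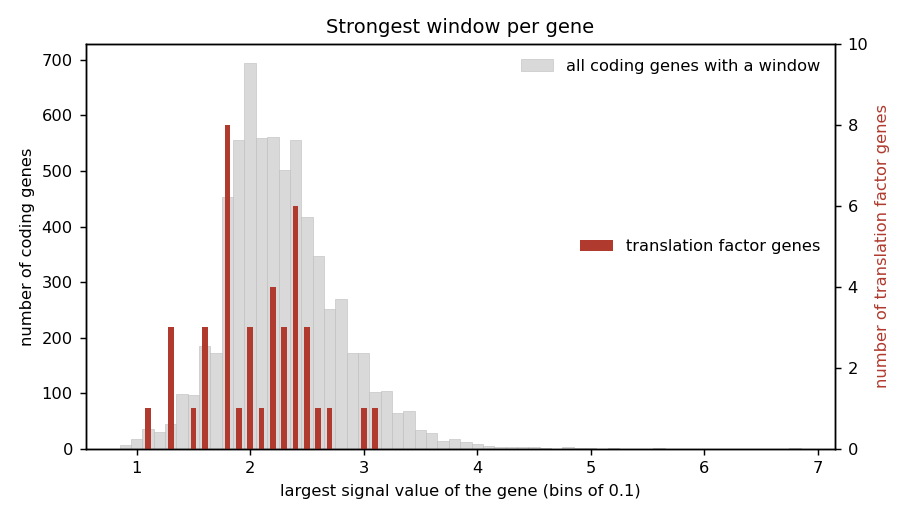
Number of genes (y axes) by the largest signal value of the gene in bins of 0.1 (x axis), for all protein-coding genes with a window (grey, left axis) and the 41 translation factor genes (red, right axis on another scale). The translation factor genes spread over 1.11 to 3.14, inside the range of all genes. Their median was 2.07 (interval 1.85 to 2.27), against 2.23, which lies inside the interval.

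The windows were placed along the RefSeq gene interval, introns included, since no exon annotation was used here. Of the 129 windows, 128 lay inside the interval of their gene. The first 20% of the gene interval held 41.1% of the windows (95% Wilson interval 33.0 to 49.7), against 42.1% over all protein-coding genes. Wilson intervals over windows treat each window as independent. The 129 windows came from 41 genes and often touched, so these intervals are likely too narrow. The middle of the gene held 44.2%, against 38.3%, and the last 20% held 14.7% (9.64 to 21.9), against 19.6%. Only EEF1D had a window within 500 bp of the gene end, its strongest listed one, which made 0.775% of the windows, against 1.99%.

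Near the gene start, 24 of the 129 windows were centred within 500 bp (18.6%, interval 12.8 to 26.2), against 24.3% over all protein-coding genes. This interval too takes windows of the same gene as independent. Within 200 bp there were 20 (15.5%, against 14.0%), so that most of the start windows of translation factor genes were very close to it. The windows within 500 bp belonged to 15 of the 41 genes (36.6%), against 43.4%. Those within 200 bp belonged to 13 genes (31.7%, against 32.5%). With the 500 bp limit, the median signal value was 1.86 at the start and 1.66 elsewhere in translation factor genes. It was 1.99 and 1.79 over all protein-coding genes. When the nearest of all RefSeq starts was used, which is known for 100 of the windows, 34.0% were centred within 500 bp, against 30.3%.

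**Figure D4:**
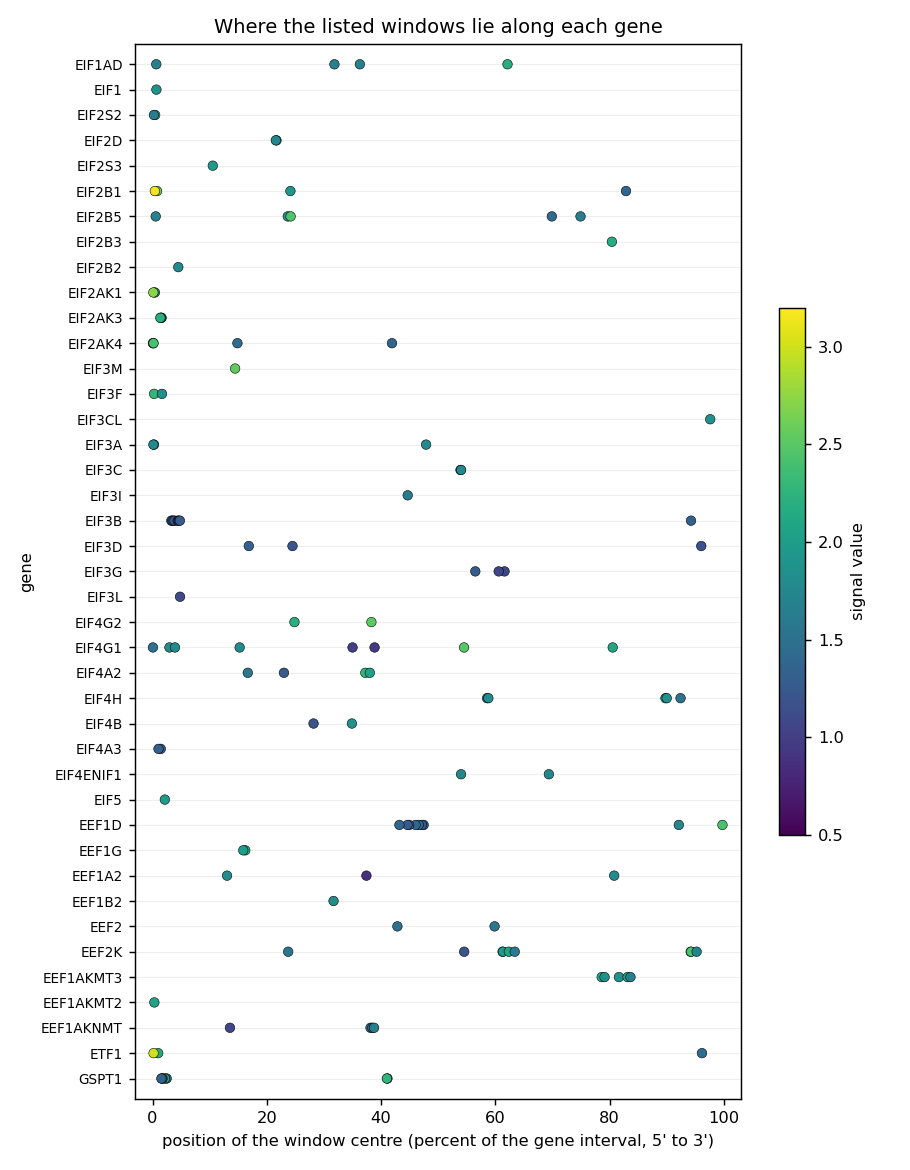
Position of the centre of each window as a percentage of the gene interval from the 5′ to the 3′ end (x axis) by gene (y axis), coloured by signal value. The strongest listed windows of EIF2B1, ETF1 and EIF2AK1 sit at the left edge, and those of EEF2K and EEF1D sit at the right.

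Parts of 9 windows, of 9 to 50 bases, fall inside the promoter table and could be read on the strand of the gene. GGAC, the core of the common m6A consensus, was found in 1 of the 9, the first window of EIF4G1 (signal value 1.51). The same stretches of all promoter entries of protein-coding genes held GGAC in 11.4% on average. The wider DRACH consensus, a search added after the sequences had been seen, was found in 3 of the 9, in the windows of EIF2B1, EIF1AD and EIF4G1, and in 25.8% of the same stretches on average. The parts shown, of at most 30 bases, are those of these 3 windows, at chr12:123633637-123633656, chr11:66002108-66002137 and chr3:184314616-184314645, and that of the EIF3F start window at chr11:7987357-7987386, which held neither. Capitals mark DRACH, and a match describes the letters and not a site.
EIF2B1: cgcgctgtcAGACTggctcg
EIF1AD: cAGACTcAGACTcacgtcgcactcctcgca
EIF4G1: gtGGACTacgtctgtgcggctgcgtggggc
EIF3F: ccacaccggcggtaccagtaagtgctcctc

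EEF1A1 and EIF4A1 had no window, while processed pseudogenes named after them, intronless copies of their mRNA, did. The table lists 20 pseudogenes named after translation factor genes, with 41 windows and a median signal value of 2.24, against 2.12 for the 593 windows of all 314 pseudogenes. EEF1A1, itself without a window, had 10 such pseudogenes with 29 windows. The strongest was in EEF1A1P6 at chr7:22511517-22511566, with a value of 4.78, above every window of the coding genes described here. EEF1A1P11 reached 4.23 and EEF1A1P19 reached 3.99, and EEF1A1P5 had 9 windows of up to 3.05.

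EIF4A1, also without a window, had 3 pseudogenes with 1 window each and values up to 3.53, in EIF4A1P10. The other pseudogenes belonged to coding genes that had windows. EIF2S2P4 had a value of 3.11 against 2.44 in EIF2S2, and EIF3FP3 had 2.38 against 2.28 in EIF3F. EIF4BP7 had 2.57 against 1.85 in EIF4B, and EIF4HP1 had 1.29 against 1.98 in EIF4H. EEF1B2P3 had 1.96 against 1.80 in EEF1B2. A processed pseudogene and its source share most of their sequence, and how reads with several matches were assigned is not stated. The values of EEF1A1, EIF4A1 and their pseudogenes are therefore uncertain, and the part of such reads in the listing was not tested. EIF3J-DT, a lncRNA transcribed away from EIF3J, had 9 windows of up to 2.83, while EIF3J had none.

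**Figure D5:**
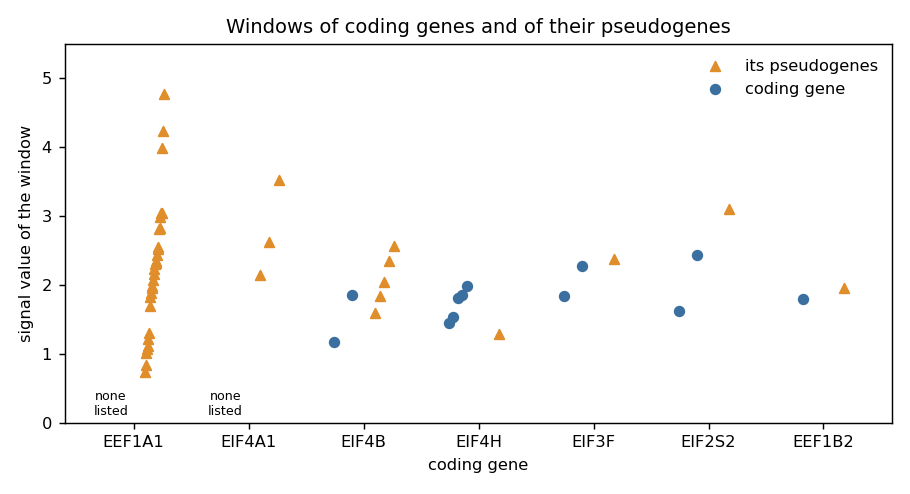
Signal value (y axis) of each listed window in coding translation factor genes (blue circles) and in the pseudogenes named after them (orange triangles), for the 7 coding genes with such a pseudogene (x axis). EEF1A1 and EIF4A1 have no window of their own, while their pseudogenes reach 4.78 and 3.53.

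Other genes of the translation system are given by counts for comparison. Of 28 further cytosolic translation genes (recycling, rescue and scanning factors and regulators such as MTOR and LARP1), 18 had a window (64.3%), with a median of the strongest value of 2.32. Of 88 ribosomal protein genes 42 had one (47.7%), with a median of 1.84, and of 10 mitochondrial translation factors 4 had one (40.0%), with a median of 1.63. The Wilson intervals of these shares, 45.8 to 79.3, 37.6 to 58.0 and 16.8 to 68.7, each overlapped that of the translation factor genes, and the differences were not tested.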

How the data were processed

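RIP-seq libraries of SNU638 cells (2 Input, 2 IP-YTHDF1, grouped by their labels) were represented by 1 table of annotated peaks. The authors deposited for each 50 bp window a signal value and a rank, used here as a score, and the deposited p-value and q-value. The submitters' processing notes name STAR 2.7.3a and GRCh38, and the peak caller is not given in the sources used here. The table has 0 columns of values per library, so no test of IP-YTHDF1 against input and no replicate comparison was made, and depth is unknown.

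Of 26820 rows, 1 repeated row was dropped, and starts are printed counted from 1. Of 6674 protein-coding symbols, 6370 (95.4%) matched RefSeq (GRCh38.p14), and shares use its 20056 protein-coding genes. Windows tested per gene were counted as the number listed times the quotient of the largest p-value's q-value and that p-value, since the q-values follow Benjamini-Hochberg adjustment within a gene. This is a lower bound for genes with 9 windows, where the deposited list may be cut. For the 2 translation factor genes with 9 windows the number was instead the smallest that makes the places of all p-values whole. On simulated data the count was recovered in 100% of 233 genes with fewer than 9 windows, and left-out places were found in 94.0% of 334 genes cut to 9. The simulations used the same adjustment. For genes cut to 9 they checked neither the number of windows counted nor the first place.

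The genes and lists were chosen with earlier results of these data known. Every gene of the selection except 1 copy of EIF1A is named with or without a window, in full for the strongest and the most frequently listed of each group, the 5 strongest in all and those with 9 windows. Groups are described by counts and medians with Wilson intervals (95%). Tables were computed with pandas 2.3.3 and NumPy 2.4.6 under Python 3.11.15, intervals with SciPy 1.17.1 and figures with matplotlib 3.10.9.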

Additional observations from a re-analysis of the deposited data

How the results depend on the processing

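The number of translation factor genes with a window (41), of their windows (129) and the median of the strongest value (2.07) depended mainly on the limit set on the windows. A q-value of at most 0.001 left 26 genes, 49 windows and a median of 2.33, and a signal value of at least 2 left 21, 32 and 2.42. A Bonferroni limit of 1.68e-07, over 298184 windows counted as a lower bound, left 18, 22 and 2.44. A second way of counting, chosen after seeing the data, took the number of windows in genes with 9 of them from the places of their p-values (373954 windows, limit 1.34e-07) and left 16 genes, 20 windows and a median of 2.44, without EIF3F and EIF4G1, whose p-values lie between both limits. The other settings for these values (regulators left out, genes with 9 windows left out, windows shared with another gene, windows with the same value as another of the gene, touching windows joined) left 32 to 41 genes. Leaving out 11 restricted copies gave 57.1% of genes with a window. The last 10% of the gene interval held 7.75% of the windows, against 14.7% in the last 20%. The share of windows near the gene start was 18.6%, and it was 34.0% with the nearest of all RefSeq starts, a setting added after seeing the data like the other limits on this distance, which gave 15.5 to 25.6%.

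No paired analysis was possible because no column carries a replicate. Leaving out a replicate was not possible for the same reason. The share of windows holding GGAC and the position over exons were planned and not run, since no genome sequence or exon annotation was used here. Depth is unknown, and a gene without a listed window is below the limit of the table at an unknown depth.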
